A study of Homo sapiens with 12 samples.

Results

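This report describes 13 genes that were higher after dihydrotestosterone (DHT) but not in full medium (FM), each set against vehicle (ETOH), in 2 LNCaP lines. LNCaP is an established, androgen-dependent line of luminal prostate cancer cells. The 13 genes were chosen by their measured levels, in CPM, which is the read count of a gene scaled to a common total of gene counts in each sample. A gene belonged to the set when its mean over the 12 samples was at least 1 CPM and when, in both lines, the lower DHT replicate was at least 1.5 times the higher ETOH replicate while the FM mean was at most 1.2 times the ETOH mean. Of 63677 gene rows, 14103 reached the minimum, 344 of these (2.44%) were raised by DHT in both lines, and 13 also stayed within the FM limit in both. These DHT and FM differences chose the genes, so they are given below as a description with no test.

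Both lines came from LNCaP cells. The Bag-1L KO line was made with a TALEN, an engineered pair of DNA-cutting proteins. It lacks the start codon of Bag-1L, the long protein form of the co-chaperone gene BAG1. The control line is described as a vector control, and whether it met the cutting proteins is not stated. Single clones were isolated by dilution and screened for loss of Bag-1L, so a difference between the lines cannot be told apart from one between clones. The sources used here do not say whether the control line was also a single clone. FM cells grew in medium with whole serum, whereas ETOH and DHT cells spent 72 h in hormone-free medium (charcoal-stripped serum) before 16 h of vehicle or 10 nM DHT. Every one of the 6 groups had 2 samples, labelled as biological replicates.

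DHT is the most potent natural androgen, and androgens act on cells by changing transcription. In luminal prostate cells they switch on secreted proteases, lipid synthesis and the secretory machinery. Whole serum holds androgens beside growth factors and other steroids, whereas charcoal stripping removes steroids. FM and DHT are therefore not the same treatment.

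Gene counts summed to between 20826843 and 30354666 per sample, and at these depths 3 counts correspond to 0.0988 to 0.144 CPM. BAG1 stood at 72.0 and 106 CPM in control ETOH, 83.6 and 95.7 CPM in control DHT, 83.0 and 76.3 CPM in control FM, 50.6 and 47.0 CPM in KO ETOH, 43.9 and 44.4 CPM in KO DHT and 59.5 and 64.0 CPM in KO FM. It was below every control sample in every KO sample, although a gene count cannot separate the long form from the shorter ones. All 8 luminal markers looked at, among them KLK3 and KRT8, were above 1 CPM on average, and 0 of the 5 basal, 0 of the 6 immune, 1 of the 3 endothelial, 3 of the 7 stromal and 3 of the 8 neuroendocrine markers were. Replicates were least alike in control ETOH, where the typical gene differed by 0.251 on the log2 scale (median of absolute differences) against 0.0751 to 0.167 in the other groups.

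Most of the set encoded proteins, namely 8 of the 13 genes (FASN, HES6, FOSL2, ST3GAL4, TFEB, EMP1, ACAD8 and PYGB). Another 2 were long noncoding RNAs (MIR22HG and DUBR) and 3 were annotated as pseudogenes (ZDHHC8BP, KRT8P45 and SMPD4BP). They lay on 9 chromosomes, and the nearest pair, ST3GAL4 and ACAD8, was 7.81 Mb apart, so the set was no cluster of neighbouring genes. At the median of the 13 genes the DHT to ETOH ratio was 1.97 in control and 1.84 in KO, and the FM to ETOH ratio was 0.895 and 1.07. Scaled to exon length, mean levels ran from 0.2496 CPM per kb for EMP1 to 166 CPM per kb for FASN. On the CPM scale the median of all 14103 genes was itself shifted by DHT, with a log2 ratio to ETOH of -0.14 in control and -0.08 in KO.

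**Figure D1:**
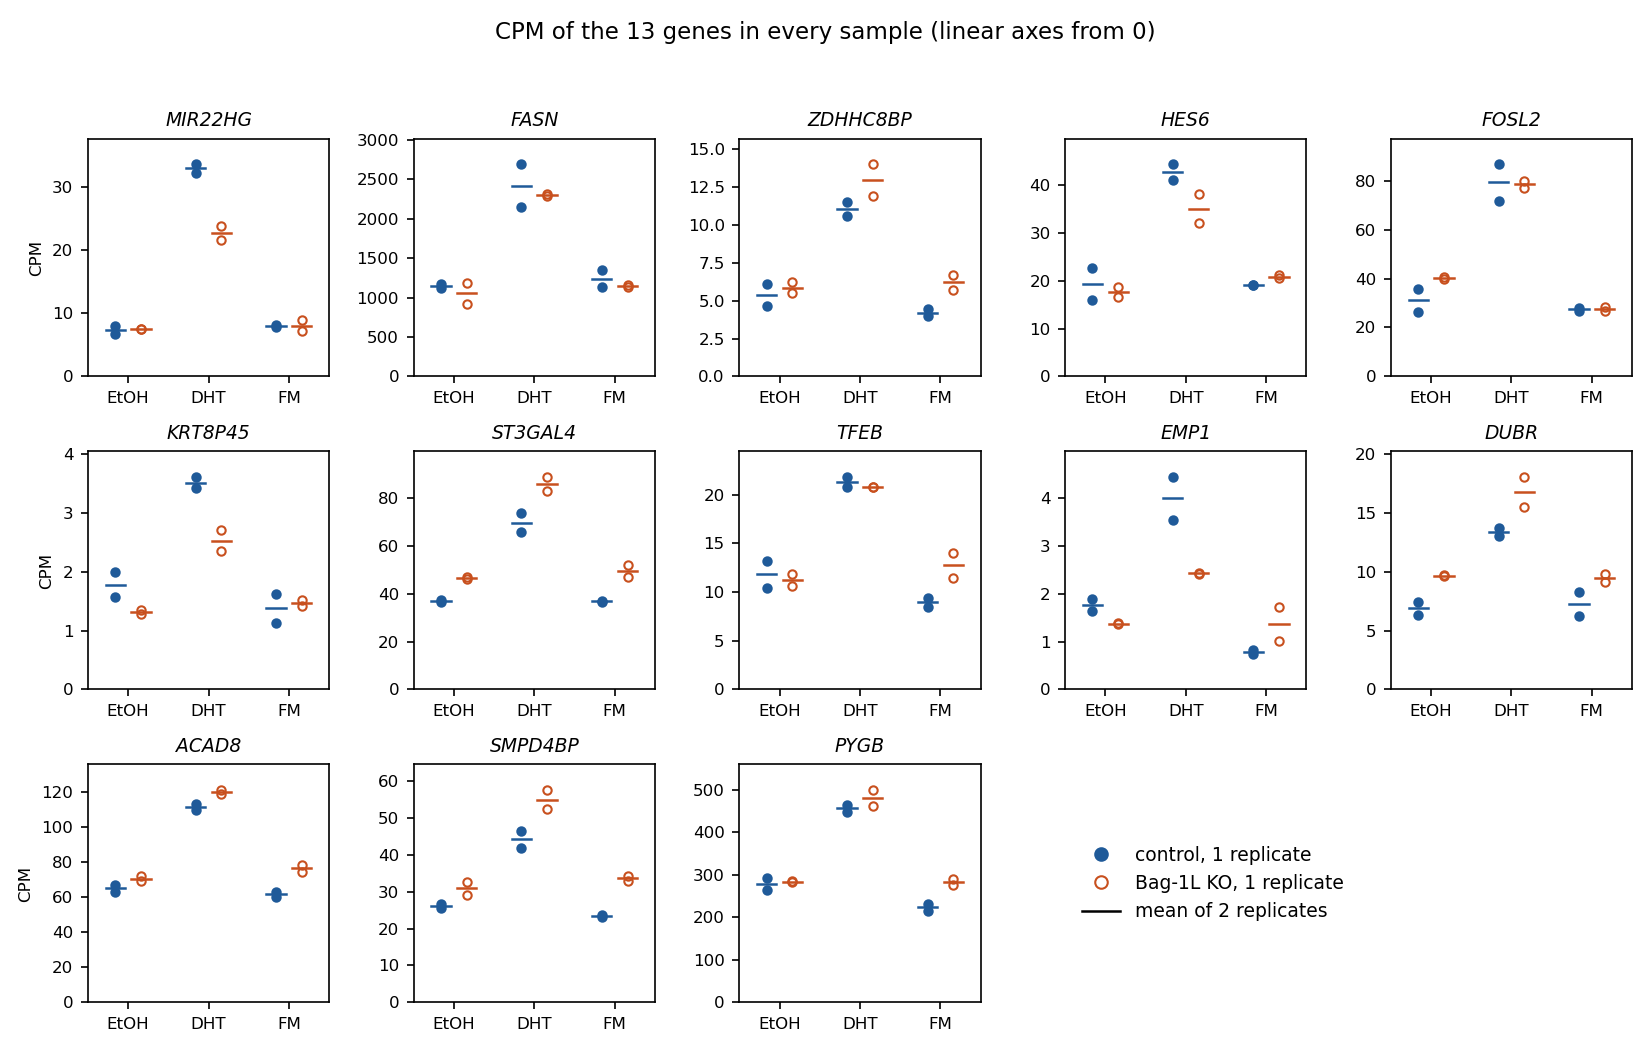
Level of each of the 13 genes in CPM (linear y axes from 0) under ETOH, DHT and FM, with filled blue points for control samples, open orange points for Bag-1L KO samples and a short line at the mean of each pair. In every panel the 4 DHT samples lie above the 4 ETOH samples and the 4 FM samples, which is what the rule selected for ETOH, and MIR22HG has the tallest DHT step.

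MIR22HG, the RNA from which the microRNA miR-22 is cut, had the largest DHT to ETOH ratio of the set in both lines. It lies on the minus strand of chromosome 17 from 1614741 to 1620468 (GRCh37). Its level was 7.93 and 6.74 CPM in control ETOH, 33.7 and 32.4 CPM in control DHT, and 7.80 and 8.11 CPM in control FM. In KO cells it was 7.54 and 7.57 CPM in ETOH, 23.9 and 21.7 CPM in DHT, and 7.23 and 8.90 CPM in FM. The FM and ETOH samples overlapped in both lines while DHT stood 4.50-fold above ETOH in control and 3.01-fold in KO. The level of the mature microRNAs was not measured here. Both mature forms lie inside the host gene on the minus strand of chromosome 17 in GRCh38.p14, and their RefSeq sequences are shown because they are the product the host is known for, with the seed (bases 2 to 8) in capitals.
hsa-miR-22-3p, chr17:1713914-1713935: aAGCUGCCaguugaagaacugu
hsa-miR-22-5p, chr17:1713952-1713973: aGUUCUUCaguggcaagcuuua

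Of the protein-coding members 3 were transcription factors. FOSL2 (Fra-2), a subunit of the dimeric factor AP-1, lies on chromosome 2 from 28615315 to 28640184 on the plus strand. It read 35.8 and 26.5 CPM in control ETOH, 86.8 and 71.9 CPM in control DHT, and 28.1 and 26.8 CPM in control FM. KO cells held 39.8 and 40.7 CPM in ETOH, 80.0 and 77.0 CPM in DHT, and 28.5 and 26.8 CPM in FM. Its FM level was thus below both ETOH samples in KO, at 0.686 of the ETOH mean, the lowest KO ratio of the set, and overlapped them in control. DHT raised it 2.55-fold in control and 1.95-fold in KO.

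HES6, a basic helix-loop-helix protein that can counteract the Notch-induced repressor HES1, lies on chromosome 2 from 239146908 to 239149303 on the minus strand. Its control samples stood at 15.9 and 22.6 CPM in ETOH, 41.0 and 44.4 CPM in DHT, and 19.1 and 19.1 CPM in FM. Its KO samples stood at 16.5 and 18.6 CPM in ETOH, 32.0 and 38.0 CPM in DHT, and 20.6 and 21.1 CPM in FM. HES6 was the member nearest the FM limit, at an FM to ETOH ratio of 1.19 in KO, and both KO FM samples were above both KO ETOH samples. Scaled by DESeq2 size factors or TMM in place of total counts, it passed that limit and was no member.

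TFEB, a factor known for switching on lysosome and autophagy genes, lies on chromosome 6 from 41651716 to 41703997 on the minus strand. Control cells held 10.4 and 13.2 CPM in ETOH, 21.8 and 20.8 CPM in DHT, and 9.44 and 8.49 CPM in FM. In KO cells the values were 10.7 and 11.9 CPM in ETOH, 20.8 and 20.8 CPM in DHT, and 11.5 and 14.02 CPM in FM. By CPM, FM was below ETOH in control, with no overlap, and overlapped it in KO. The control FM to ETOH ratio was 0.757 by CPM and 1.03 after centring by GC content, described below.

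DUBR, a long noncoding RNA on chromosome 3 from 106939591 to 107067311 on the plus strand, read 7.41 and 6.35 CPM in control ETOH, 13.04 and 13.7 CPM in control DHT and 6.28 and 8.26 CPM in control FM. It read 9.70 and 9.66 CPM in KO ETOH, 18.1 and 15.5 CPM in KO DHT and 9.10 and 9.79 CPM in KO FM. The FM and ETOH samples overlapped in both lines. DUBR overlaps ENSG00000272597 on its own strand, and 3 further genes overlap it on the other strand. FOSL2 likewise overlaps ENSG00000270640 on its own strand.

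Enzymes of energy metabolism gave 3 members, and 2 of them, FASN and PYGB, had the highest levels of the set per exon length (166 and 75.1 CPM per kb, ahead of HES6 at 13.2). FASN, the enzyme that builds palmitate from acetyl and malonyl units, lies on chromosome 17 from 80036214 to 80056170 on the minus strand. It stood at 1122 and 1173 CPM in control ETOH, 2692 and 2141 CPM in control DHT, and 1348 and 1129 CPM in control FM. In KO it stood at 921 and 1189 CPM in ETOH, 2309 and 2282 CPM in DHT, and 1155 and 1135 CPM in FM. DHT thus raised FASN 2.11-fold in control and 2.18-fold in KO, and FM and ETOH overlapped in both. Leaving out KO ETOH replicate 2 took FASN out of the set, and leaving out some other sample did the same for HES6, TFEB, EMP1 and DUBR, whereas the other 8 stayed in the set whichever sample was left out.

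PYGB, the brain form of glycogen phosphorylase, which releases glucose units from glycogen, lies on chromosome 20 from 25228721 to 25278648 on the plus strand. Its control levels were 265 and 294 CPM in ETOH, 466 and 448 CPM in DHT, and 232 and 216 CPM in FM. Its KO levels were 285 and 283 CPM in ETOH, 461 and 500.0 CPM in DHT, and 276 and 290 CPM in FM. FM was below ETOH in control without overlap, at 0.801 of its mean, and overlapped it in KO. PYGB had the smallest separation in the set, its lower DHT sample being 1.53 times the higher ETOH sample in control.

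ACAD8, the mitochondrial isobutyryl-CoA dehydrogenase of valine breakdown, lies on chromosome 11 from 134123442 to 134135749 on the plus strand. It read 63.1 and 67.0 CPM in control ETOH, 109 and 113 CPM in control DHT, and 63.0 and 60.0 CPM in control FM. KO cells held 72.1 and 69.0 CPM in ETOH, 121 and 119 CPM in DHT, and 74.1 and 78.4 CPM in FM. Replicates were close in every group, and the DHT to ETOH ratio was 1.711 in control and 1.7002 in KO.

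Of the remaining protein-coding members, ST3GAL4 encodes a Golgi sialyltransferase that caps galactose on glycoproteins and glycolipids, and lies on chromosome 11 from 126225535 to 126310239 on the plus strand. It read 36.6 and 37.2 CPM in control ETOH, 73.6 and 65.6 CPM in control DHT, and 36.8 and 36.7 CPM in control FM. In KO cells it read 46.3 and 46.8 CPM in ETOH, 82.9 and 88.7 CPM in DHT, and 46.7 and 51.9 CPM in FM. Its FM to ETOH ratio was 0.995 in control and 1.06 in KO. Every KO sample was above the control samples of the same condition.

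EMP1, a small membrane protein of the PMP22 family, lies on chromosome 12 from 13349657 to 13372875 on the plus strand. It was scarce, with 1.89 and 1.64 CPM in control ETOH, 4.45 and 3.56 CPM in control DHT, and 0.736 and 0.830 CPM in control FM. In KO cells it read 1.39 and 1.36 CPM in ETOH, 2.44 and 2.42 CPM in DHT, and 1.72 and 1.02 CPM in FM. Its FM to ETOH ratio of 0.444 in control was the lowest of the set, whereas in KO it was 0.996.

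The 3 pseudogenes resemble protein-coding parents, and part of their reads may not be assignable to them. The share of 50-base stretches of the transcript found unchanged in another annotated gene was 75.6% for ZDHHC8BP (shared with ZDHHC8, a palmitoyltransferase, or ENSG00000290920), 23.3% for SMPD4BP (shared with SMPD4, a sphingomyelinase) and 12.5% for KRT8P45 (shared with the luminal keratin KRT8 or its other copies). Counting left out reads that map to several places, and how many reads of the parents were placed on these genes was not measured.

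SMPD4BP, on chromosome 2 from 132250386 to 132279146, read 25.5 and 26.7 CPM in control ETOH, 46.5 and 41.7 CPM in control DHT and 23.5 and 23.2 CPM in control FM. Its KO values were 29.2 and 32.5 CPM in ETOH, 52.3 and 57.5 CPM in DHT and 32.9 and 34.2 CPM in FM. ZDHHC8BP, on chromosome 22 from 23740125 to 23744344, read 4.63 and 6.12 CPM in control ETOH, 11.5 and 10.6 CPM in control DHT and 4.46 and 3.96 CPM in control FM. By CPM, control FM was below control ETOH without overlap for both pseudogenes. After centring by GC content, described below, the control FM to ETOH ratio was 1.03 for SMPD4BP and 1.19 for ZDHHC8BP.

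Knockout cells held ZDHHC8BP at 6.24 and 5.49 CPM in ETOH, 11.9 and 14.03 CPM in DHT and 5.74 and 6.72 CPM in FM. KRT8P45, on chromosome 1 from 157043049 to 157044495, read 1.57 and 1.99 CPM in control ETOH, 3.61 and 3.41 CPM in control DHT and 1.13 and 1.62 CPM in control FM. In KO cells it read 1.34 and 1.28 CPM in ETOH, 2.70 and 2.35 CPM in DHT and 1.41 and 1.51 CPM in FM. The parents did not share one pattern. KRT8 had DHT to ETOH ratios of 3.38 in control and 2.43 in KO with FM ratios of 1.01 and 1.60, SMPD4 had DHT ratios of 1.33 and 1.46 with FM ratios of 1.72 and 1.58, and ZDHHC8 had DHT ratios of 1.0004 and 1.11 with FM ratios of 0.598 and 0.805.

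Overlap with an antisense neighbour was annotated for 7 members, MIR22HG with WDR81, FOSL2 with FOSL2-AS1, PYGB with ABHD12, ST3GAL4 with KIRREL3, HES6 with ENSG00000225057, TFEB with ENSG00000231102, and DUBR. The library kit marked strand, but the strand setting of the counting was not given in the sources used here, so reads of the antisense genes may be held in these counts.

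RefSeq promoters (GRCh38.p14, 250 bases before to 50 after the start) were matched for 8 of the 13 genes, not for FASN, ZDHHC8BP, KRT8P45, DUBR and SMPD4BP. Motifs were searched on both strands. The androgen half-site AGAACA was in 0 of the 8 windows, against 14.9% of 27305 promoters and 10.5% of 239 promoters of the other genes raised by DHT in both lines, and the complete androgen response element (AGAACA and TGTTCT with 3 bases of any kind between, which holds the half-site) was in 0 of the 8 and in 0.00366% of all promoters. The sterol response element (ATCACC joined to CCAC) was in 0 of the 8 and in 0.0476% of all promoters, and the forkhead site TGTTTAC was in 0 of the 8 and in 3.41%. The forkhead site TGTTTGC was in 1 (PYGB) against 3.87% of all promoters. After the members were known, 2 further sites were added because FOSL2 and TFEB are members. The AP-1 site TGACTCA was in 2 of the 8 (FOSL2 and EMP1) against 4.92% of all promoters and 2.51% of those of the other genes raised by DHT. The E-box CACGTG was in 1 (ST3GAL4) against 7.43% and 11.7%. With 8 windows and sites added after the members were known, nothing is read from these counts. The promoters had a median GC content of 70.8%, against 66.0% for the other genes raised by DHT and 58.3% for all.

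The promoter of MIR22HG is shown as that of the largest DHT rise, and those of FOSL2 and EMP1 for the AP-1 site, which stands in capitals on the strand read.
MIR22HG, chr17:1716161-1716460, minus strand: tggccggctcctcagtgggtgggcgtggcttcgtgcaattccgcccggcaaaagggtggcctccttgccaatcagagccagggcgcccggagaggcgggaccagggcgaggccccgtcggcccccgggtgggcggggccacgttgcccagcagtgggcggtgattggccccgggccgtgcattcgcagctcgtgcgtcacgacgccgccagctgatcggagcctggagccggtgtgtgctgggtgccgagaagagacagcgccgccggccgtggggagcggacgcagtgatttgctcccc
FOSL2, chr2:28392608-28392907, plus strand: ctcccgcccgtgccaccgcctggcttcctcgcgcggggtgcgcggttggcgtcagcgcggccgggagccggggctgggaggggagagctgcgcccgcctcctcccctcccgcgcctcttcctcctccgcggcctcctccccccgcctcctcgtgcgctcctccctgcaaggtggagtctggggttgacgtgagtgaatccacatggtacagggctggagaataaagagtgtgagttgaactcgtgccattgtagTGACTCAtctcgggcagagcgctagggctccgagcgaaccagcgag
EMP1, chr12:13196476-13196775, plus strand: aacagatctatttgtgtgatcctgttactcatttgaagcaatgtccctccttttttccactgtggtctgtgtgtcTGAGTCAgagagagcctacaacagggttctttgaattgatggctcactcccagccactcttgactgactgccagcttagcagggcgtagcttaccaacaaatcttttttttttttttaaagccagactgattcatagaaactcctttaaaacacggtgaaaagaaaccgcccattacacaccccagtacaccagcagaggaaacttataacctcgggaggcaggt
A match is a match of letters in this window only, and no binding was measured here.

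Most genes that DHT raised in both lines were also higher in FM. Of the 331 others, 297 were above the FM limit in both lines, 10 in control only and 24 in KO only. Their median FM to ETOH ratio was 2.44 in control and 2.73 in KO, and their median DHT to ETOH ratio was 2.92 and 2.90. The DHT ratios of 12 of the 13 genes were below these medians in both lines, and those of MIR22HG were above them. Members just inside the FM limit were HES6 at 1.19, TFEB at 1.13 and KRT8P45 at 1.11 in the higher line, and genes just outside were ZFP36 at 1.204, GADD45G at 1.27 and PWWP3B at 1.28. On the DHT side PYGB at 1.53, SMPD4BP at 1.56 and TFEB at 1.57 were just inside the separation of 1.5, and HERPUD1 at 1.497, ENSG00000223969 at 1.49 and FLJ20021 at 1.49 were just outside. EMP1 and KRT8P45, at 1.96 and 1.99 CPM, were nearest above the minimum of 1 CPM, and MIR1915HG at 0.609 CPM was nearest below it.

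**Figure D2:**
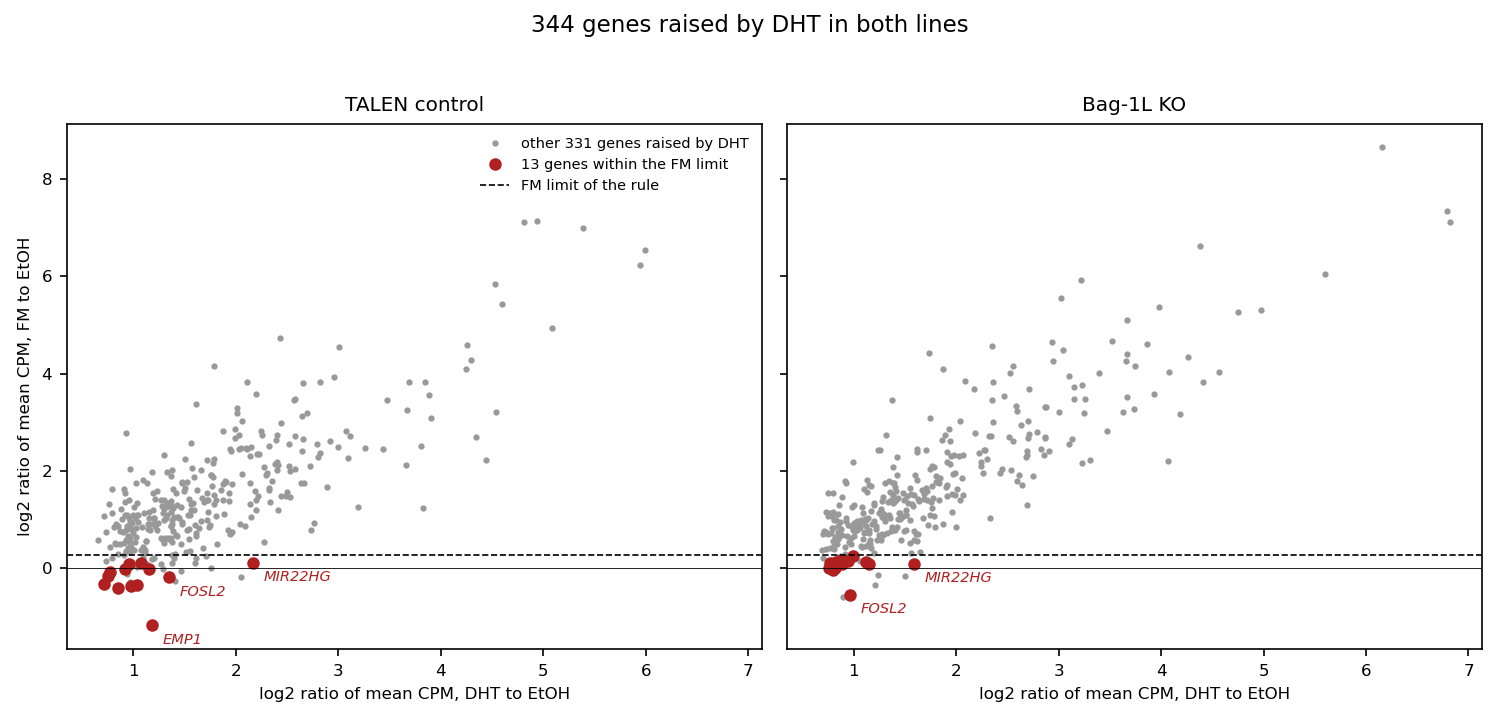
Log2 ratio of mean CPM for FM to ETOH (y axis) against that for DHT to ETOH (x axis) in the control line (left) and the KO line (right), for the 344 genes raised by DHT in both lines. The 13 genes (red) lie under the dashed FM limit in both panels, mostly at the lower end of the DHT axis, while MIR22HG lies at ratios of 4.50 and 3.01, and grey points under the line exceeded the limit in the other line.

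None of 40 androgen-induced genes looked up was in the set. Only 13 of 14103 genes were members, so nothing is read from that absence. Of the 40, 28 were raised by DHT in both lines but above the FM limit, 10 were not raised by the rule and 2 were under the minimum level. FKBP5, a textbook target that encodes an immunophilin, had DHT to ETOH ratios of 14.8 in control and 15.2 in KO and FM ratios of 11.8 and 11.97. Nearest to the FM limit among those 28 were PLPP1, a lipid phosphatase, with DHT ratios of 2.30 and 3.07 and FM ratios of 1.15 and 1.48, and the kinase CAMKK2, with DHT ratios of 1.95 and 2.92 and FM ratios of 1.25 and 1.43. KLK4, a kallikrein, had FM ratios of 0.953 and 0.9605 but DHT ratios of 1.38 and 1.746 and failed the DHT step.

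Other genes of the same pathways were counted by list, and no difference between a DHT and an FM change was tested. Calls for lists used DESeq2 (adjusted p at most 0.05, fold of at least 1.5), by which 6.04% of genes tested were higher and 5.37% lower with DHT in control, 4.43% and 3.24% with DHT in KO, 9.81% and 11.5% with FM in control and 9.61% and 9.68% with FM in KO. Of 17 fatty acid synthesis genes, FASN included, 8 were higher with DHT in each line and 7 were higher with FM in each, with 0 lower with DHT and 1 lower with FM. Beside FASN, the desaturase FADS2 had DHT ratios of 2.23 and 1.76 with FM ratios of 1.73 and 1.55, and the acyl-CoA ligase ACSL3 had DHT ratios of 5.23 and 3.95 with FM ratios of 6.24 and 5.05. SREBF1, which encodes the main factor that controls FASN, had DHT ratios of 0.9697 and 1.03 and FM ratios of 0.633 and 0.729, and passed the test as lower with FM in control (DESeq2 adjusted p = 1.67e-06) but missed the fold minimum in KO.

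Of 21 immediate early genes tested, the list that holds FOSL2, 7 were higher and 2 lower with DHT in control, 4 and 2 with DHT in KO, 2 and 8 with FM in control, and 2 and 3 with FM in KO. Among AP-1 subunits FOS, at a mean of 1.56 CPM, had DHT ratios of 1.96 and 2.01 and FM ratios of 0.821 and 1.59. JUN had DHT ratios of 1.37 and 1.10 and FM ratios of 0.507 and 0.644, and JUND had DHT ratios of 1.01 and 0.900 and FM ratios of 0.287 and 0.576. FOSL2 was thus the AP-1 subunit with the largest DHT ratio in control, and FOS the one in KO.

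Keratins and their pseudogenes, the list of KRT8P45, had 18 of 30 tested higher and 0 lower with DHT in control, 15 and 0 in KO, 8 of 33 higher and 2 lower with FM in control and 11 and 2 in KO. Some lists without a member also held more genes higher with DHT than with FM. Of 30 endoplasmic reticulum folding genes tested, 24 were higher and 0 lower with DHT in control and 16 and 0 in KO, against 5 of 31 higher and 1 lower with FM in control and 14 and 1 in KO. Of 25 cholesterol synthesis and uptake genes, 14 were higher with DHT in control and 8 in KO, with 0 lower in both, against 2 higher and 3 lower with FM in control and 2 and 2 in KO. HERPUD1, which missed the set by its DHT separation, is an endoplasmic reticulum stress gene.

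Cell cycle genes, which mark proliferating cells, were higher mostly with FM. Of 31 G1/S genes 26 were higher with FM in control and 28 in KO, with 0 lower, and 2 were higher with DHT in each line, with 1 lower in control and 0 in KO. In bulk samples fewer cells of a type and less RNA per cell cannot be told apart.

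Relatives of the members were looked at as families chosen after the members were known, so their values are a description. TFE3 and MITF, the relatives of TFEB that were above 1 CPM, had DHT ratios of 1.195 and 1.08 and of 0.728 and 0.761 (control, then KO). Of 20 lysosome genes, the kind TFEB is known to control, WIPI1 had DHT ratios of 3.51 and 3.39 and FM ratios of 2.64 and 3.22, and the median of the 20 was 0.915 in control and 0.865 in KO with DHT. PYGL, the liver glycogen phosphorylase, had DHT ratios of 0.783 and 0.968. ST3GAL1, the sialyltransferase of that family with the highest level per exon length, had DHT ratios of 0.767 and 0.664. Of the valine pathway, ALDH6A1 had DHT ratios of 1.14 and 1.23, the next after ACAD8 among genes above 1 CPM in KO. PMP22, a relative of EMP1, had DHT ratios of 0.2503 and 0.226. HES1 had DHT ratios of 1.63 and 2.09 and FM ratios of 0.779 and 1.83.

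FM and ETOH samples of the 13 genes were also compared sample by sample. In control 0 of the 13 genes had both FM samples above both ETOH samples and 6 had both below (ZDHHC8BP, TFEB, EMP1, ACAD8, SMPD4BP and PYGB), where 32.3% and 37% of the 14103 genes were above and below. In KO 4 were above (HES6, KRT8P45, ACAD8 and SMPD4BP) and 1 below (FOSL2), where 37.2% and 42.9% of all were. The rule bounded the FM level from above, so nothing is read from these counts.

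GC content moved with the FM values. The median transcript GC content was 57.9% in the set, 46.7% in the other genes raised by DHT and 47.9% in all 14103 genes. Over 13805 genes with a known GC content, the log2 FM to ETOH difference had a Spearman correlation with GC of -0.364 in control and -0.0902 in KO, and the difference between the 2 control ETOH replicates one of 0.324, as a description across genes that share the same libraries. When each sample was centred within 20 bins of GC content, an alternative added after seeing the data, 9 of the 13 genes stayed in the set and 22 genes met the rule. FASN then had FM to ETOH ratios of 1.62 in control and 1.26 in KO, HES6 of 1.51 and 1.37, TFEB of 1.03 and 1.26 and ZDHHC8BP of 1.19 and 1.22, so that these 4, at 61.4% to 68.4% GC, passed the limit in at least 1 line. The part of GC content in the FM values was not tested further. The DHT separation of all 13 stayed above 1.5 under this centring, with a range of 1.58 to 4.58 in control and of 1.62 to 2.92 in KO.

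**Figure D3:**
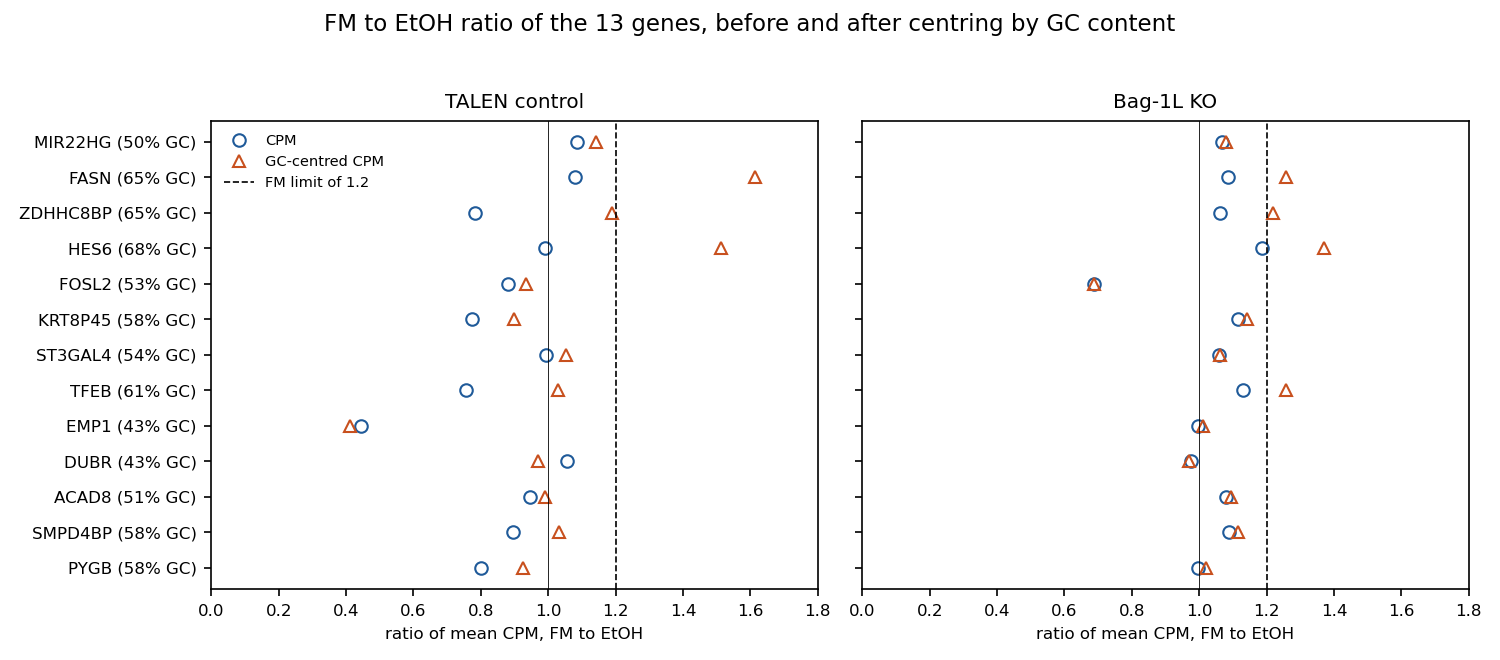
FM to ETOH ratio of mean CPM (x axis, linear) for the 13 genes in the control line (left) and the KO line (right), as CPM (blue circles) and after centring by GC content (orange triangles), with the limit of 1.2 dashed and each gene's GC content beside its name. FASN and HES6 moved past the limit in both panels, TFEB and ZDHHC8BP in the KO panel, and the other 9 stayed under it.

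Whether the level of the 13 genes differed between KO and control was tested in each condition with DESeq2 over all genes. Such a difference between the lines cannot be told apart from one between clones. The rule did not compare the lines with each other, although the same samples entered it. In ETOH 0 of the 13 passed (adjusted p at most 0.05 and a fold of at least 1.5), where 2.8% of genes tested were higher and 2.31% lower in KO. At an unadjusted p under 0.05 there were 3 (FOSL2, ST3GAL4 and DUBR), and edgeR also called 0 of the 13. The share of all genes at that unadjusted p was not computed, so nothing is read from the count. FOSL2 differed by 0.32 ± 0.13 (log2 fold change ± SE, 2 samples a group), ST3GAL4 by 0.27 ± 0.12 and DUBR by 0.43 ± 0.19, each with KO higher and a DESeq2 adjusted p between 0.127 and 0.142. The FOSL2 value rested on which control ETOH sample was kept: it was 0.48 without its replicate 1 (DESeq2 adjusted p = 0.0034) and 0.16 without its replicate 2 (DESeq2 adjusted p = 0.528), with the lone sample assumed to vary like the other groups. The median log2 difference of the 13 was -0.02, as it was over all genes tested with a mean of at least 1 CPM (-0.02).

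With DHT, 2 of the 13 were lower in KO and 0 higher, where 3.32% of genes tested were lower and 4.66% higher. MIR22HG fell by 0.66 on the log2 scale (SE 0.14, DESeq2 adjusted p = 1.1e-04), from 33.7 and 32.4 CPM in control to 23.9 and 21.7 CPM in KO, and 2 of 2 KO samples were below both control samples. Its adjusted p was between 7.77e-05 and 0.0219 under 10 alternatives. EMP1 fell by 0.84 (SE 0.31, DESeq2 adjusted p = 0.0475), with 2 of 2 KO samples below both control samples at levels under 5 CPM. That call was lost under 8 of the 10 alternatives, with adjusted p between 0.0182 and 0.259, so it rests on the settings used. HES6 was next, with a log2 fold change of -0.41 ± 0.18 and a DESeq2 adjusted p of 0.104. The 2 KO DHT replicates differed with GC content (Spearman 0.601 across 13805 genes), at 50% GC for MIR22HG and 42.6% for EMP1, and the part of this in either result was not tested. The median of the 13 was -0.13 by DESeq2, against -0.02 over all genes tested with a mean of at least 1 CPM. By CPM it was -0.02, against 0.10 over the 14103 genes. The CPM median of the 13 was 0.10 without control DHT replicate 1 and 0.01 without KO DHT replicate 2. It was -0.07 without control DHT replicate 2, so no direction is read from it.

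For MIR22HG the DHT response itself, DHT to ETOH in KO less that in control, was -0.64 ± 0.22 on the log2 scale, beside a KO to control difference of -0.02 ± 0.17 in ETOH. For FOSL2 it was -0.45 ± 0.18, beside KO to control differences of 0.32 ± 0.13 in ETOH and -0.13 ± 0.13 in DHT. The other 11 lay between -0.42 ± 0.48 (EMP1) and 0.06 ± 0.30 (ZDHHC8BP). These differences reuse the values that chose the genes and carry no test.

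In FM 0 of the 13 passed, where 5.41% of genes tested were higher and 2.6% lower in KO, and edgeR called 0 as well. At an unadjusted p under 0.05 there were 6 with DESeq2 and 8 with edgeR, all with KO higher. The share of all genes at that unadjusted p was not computed, so these counts do not set the members apart from other genes. SMPD4BP (0.46 ± 0.13, DESeq2 adjusted p = 0.00491) and ST3GAL4 (0.36 ± 0.12, DESeq2 adjusted p = 0.0172) missed by the fold minimum. The median log2 difference of the 13 was 0.27, against -0.02 over all genes tested with a mean of at least 1 CPM. FM to ETOH differences followed GC content more in control than in KO (Spearman -0.364 and -0.0902 across 13805 genes). Median GC content was 57.9% in the set and 47.9% in all 14103 genes. The part of this in the KO to control differences in FM was not tested.

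By CPM, KO samples stood above control samples without overlap for 5 of the 13 in ETOH, 5 in DHT and 9 in FM, where 28.4%, 38.9% and 42.4% of the 14103 genes did so. They stood below for 2, 5 and 0 of the 13, where 18.7%, 20.3% and 32.2% did. ST3GAL4, DUBR, ACAD8 and SMPD4BP were above in all 3 conditions, and the share of all genes that were so was not computed. On the CPM scale the median of the 14103 genes was itself higher in KO. Its log2 KO to control ratio was 0.04 in ETOH, 0.10 in DHT and 0.05 in FM. For ACAD8 in DHT the DESeq2 log2 fold change was -0.01 ± 0.11. Control and KO FM enter both the rule and the KO to control comparison, and the rule sets an upper bound on each line's FM level relative to its own ETOH level.

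**Figure D4:**
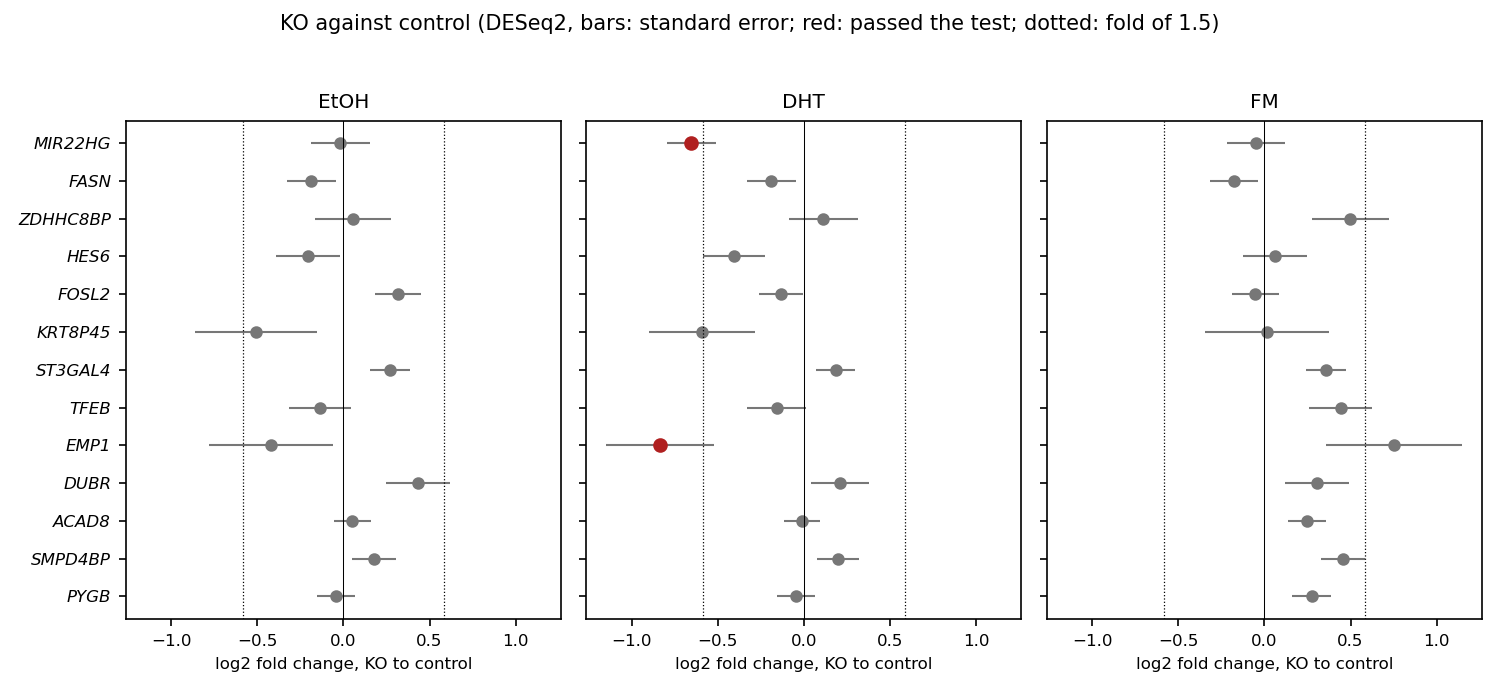
DESeq2 log2 fold change of KO to control (x axis; points with standard error bars, 2 samples a group) for the 13 genes in ETOH, DHT and FM, with dotted lines at a fold of 1.5 and red points for genes that passed the test. MIR22HG and EMP1 are red in the DHT panel, and no point is red in ETOH or FM. In FM 10 of 13 points lie right of 0, and the share of all genes that did so was not computed, so nothing is read from that count.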

How the data were processed

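RNA-seq of 12 LNCaP samples was analysed, with 2 samples in each of 6 groups taken from the labels. The authors made stranded TruSeq mRNA libraries, ran them on an Illumina HiSeq, processed the reads with CASAVA 1.7, mapped them to GRCh37 with TopHat2 2.0.11 and counted reads per Ensembl gene with HTSeq 0.5.3p3. Versions come from the submitters' processing notes. The Ensembl release and the strand setting are not given in the sources used here. The deposited values are raw counts of reads per gene, not normalized and not pooled, for 63677 genes. The 5 tally rows of each file, which name no gene, held 26.9% to 31.5% of all counts and were left out. Reads that map to several places are in those tallies, so genes with near-identical copies are counted low.

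CPM was computed on the sum of the gene rows. The members, the gene lists and the families were chosen with earlier results of these data known, so no pattern in them is independent support. Every member is named. The planned rule for names covered the members with the largest changes, the highest levels and the values nearest a threshold, and the androgen-induced list as no members. The share of all genes tested that passed, or whose groups did not overlap in a single comparison, stands beside the count of members. It is not given for edgeR calls, for counts at an unadjusted p or for patterns over several comparisons.

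KO was compared with control in ETOH, DHT and FM with DESeq2 1.42.0 (R 4.3.3) in a single fit of all 12 samples, after a filter of at least 10 counts summed over samples, which kept 26156 genes. DESeq2, an adjusted p of at most 0.05 (Benjamini-Hochberg) and a fold of at least 1.5 followed the study's methods, and Wald tests and unshrunken log2 fold changes were choices made here. The p-values rest on a single dispersion per gene that all 6 groups of 2 samples share. They do not measure the spread within the compared groups alone. The fit was tested on simulated data. Symbols, positions, lengths and GC contents came from GENCODE on GRCh37 (55665 of the gene identifiers), and promoters and microRNAs from RefSeq on GRCh38.p14. Protein sequences were not used here. Replicate numbers were not used to pair the samples in the main fit. Over 15 pairs of groups, same-numbered deviations had a mean correlation of 0.0278. It ran from -0.453 (control ETOH with KO ETOH) to 0.707 (control ETOH with control DHT). The mean cannot show whether single groups were paired, and a replicate block was run as an alternative. Alternatives were edgeR 4.0.16 with TMM, TMM size factors, other filters, fits of the 4 samples compared, a replicate block, left-out samples, no fold minimum, other scalings and thresholds of the rule and, added after the data were seen, CPM centred by GC content.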

Additional observations from a re-analysis of the deposited data

Results flagged for a closer look

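Among the 13 genes, 5 had groups that by CPM moved in opposite ways, sample by sample, under the same comparison. The share of all genes that did so was not computed, so the count does not set the members apart. Whether the effects differed between the lines or conditions was not tested. Of the KO to control ratios of EMP1, TFEB and HES6 given here, that of EMP1 in DHT passed the test within its condition (DESeq2 adjusted p = 0.0475), a call lost under 8 of 10 alternatives with adjusted p between 0.0182 and 0.259. For ACAD8 both control FM samples were below both control ETOH samples, at 0.945 of their mean, and both KO FM samples were above both KO ETOH samples, at 1.08. SMPD4BP did the same, with FM to ETOH ratios of 0.895 in control and 1.09 in KO. After centring by GC content, SMPD4BP had ratios of 1.03 in control and 1.11 in KO, both above 1. Those of ACAD8 were then 0.991 and 1.09.

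The remaining 3 differed in the KO to control ratio between conditions, with no overlap of samples on either side. For EMP1 it was 0.781 in ETOH and 0.607 in DHT but 1.75 in FM, at levels of 0.736 to 4.45 CPM. For TFEB it was 0.973 in DHT and 1.42 in FM. For HES6 it was 0.820 in DHT and 1.09 in FM. The DESeq2 log2 differences (± SE) of TFEB were -0.16 ± 0.17 in DHT and 0.44 ± 0.18 in FM. Those of HES6 were -0.41 ± 0.18 in DHT and 0.06 ± 0.18 in FM. The TFEB value in DHT and the HES6 value in FM were thus within their standard error of 0.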

How the results depend on the processing

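The number of genes that met the rule was 13. It was 21 with no minimum level, 48 with a DHT separation of 1.3, 1 with a separation of 2, 3 with an FM limit of 1.0, 39 with an FM limit of 1.5, 32 when group means replaced the lower and higher replicate and 22 with CPM centred by GC content. With 1 sample left out it was between 11 and 19, and 17 with DESeq2 size factors or TMM. A replicate block, with DHT and ETOH paired by number, gave 18.

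The median log2 DHT to ETOH ratio of the set in KO was 0.88, and 0.96 with DESeq2 size factors or the DESeq2 fold change and 0.97 with TMM. The median FM to ETOH ratio in control was -0.16, and -0.10 with DESeq2 size factors or fold changes. The median KO to control difference in ETOH was 0.04 and ran from -0.050 to 0.14 with 1 sample left out. With DHT it was -0.02 and ran from -0.07 to 0.10 with 1 sample left out, and was -0.13 with DESeq2 size factors or fold changes and -0.10 with TMM. In FM it was 0.34, and 0.27 with DESeq2 size factors or fold changes and 0.29 with TMM, and ran from 0.30 to 0.38 with 1 sample left out.

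Of the 13 genes, 2 were called in KO with DHT, and 1 (MIR22HG) with TMM size factors in DESeq2, with no filter, with only the 4 samples compared, with the replicate block and with each of the 4 samples left out. In FM 0 were called, and 2 without the fold minimum. Of 390 single values of KO to control under alternatives, 382 kept their side of the threshold and 8, all EMP1 with DHT, lost the call.

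Over all genes, the fit of only the 4 samples compared called 1324 genes for DHT in control instead of 2001 and 506 for KO in ETOH instead of 844. Without the fold minimum the calls were 3491 for DHT in control, 2384 instead of 1346 for DHT in KO, 6478 instead of 3956 for FM in control, 5887 instead of 3578 for FM in KO, 1620 for KO in ETOH, 2620 instead of 1278 for KO in DHT and 2776 instead of 1202 for KO in FM. With 1 sample left out they ran from 480 to 1439 for KO in ETOH, from 720 to 1556 for KO in DHT and from 520 to 901 for KO in FM. The replicate block called 823, 1265 and 1200 for KO in ETOH, DHT and FM, and changed no call of a member other than EMP1. With 2 samples a group, differences under the fold minimum in scarce genes such as EMP1 and KRT8P45 could not be resolved, and the cause of these shifts was not tested.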

Other observations

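Where CPM was replaced by DESeq2 size factors or TMM, 12 of the 13 genes stayed in the set and HES6 left it, while ATF3, an immediate early gene, PLK2, HERPUD1, FLJ20021 and ENSG00000223969 entered under both. FOSL2, PYGB and MIR22HG were members in 22 of 23 alternative forms of the rule, ST3GAL4, ACAD8 and SMPD4BP in 21, EMP1, ZDHHC8BP, KRT8P45 and DUBR in 20, FASN and TFEB in 19 and HES6 in 15. MIR22HG alone kept its place when the DHT separation was set to 2, and FOSL2, PYGB and EMP1 when the FM limit was set to 1.0. With the FM limit at 1.5 the set grew to 39 genes, among them DNAJB9, DNAJC3 and FICD of the endoplasmic reticulum stress response.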
